A study of Mus musculus with 10 samples.

Results

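The interstitial collagens and the proteins that fold, trim and crosslink them form the fibrous matrix around each bile duct. Their genes were followed here by name: 40 were listed, and the 38 with a probe set assigned to exactly 1 gene symbol were used, out of 22180 genes on the array. They comprise 19 collagen chains, 7 hydroxylases and chaperones, 7 processing and crosslinking genes and 5 matrix glycoproteins. Plod3 and Loxl2 have only probe sets shared with another gene and were not analysed here. Where a gene had several probe sets, the brightest on average was used.

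The samples are portal tracts, the regions of liver where a bile duct lies beside branches of the portal vein and hepatic artery. They were cut by laser from frozen livers of mice aged 1 week, and 12 to 20 tracts were combined per sample. The 5 Jag1+/-Rfng+/- samples come from mice heterozygous at Jag1, a Notch ligand gene, and at Rfng, the gene of the Notch-modifying glycosyltransferase Radical fringe. The 5 control samples are labelled C57Bl/6J, while the strain of the Jag1+/-Rfng+/- mice and the type of both alleles are not given. No agent was applied to either group. No label ties a sample to a separate mouse, so the p-values reflect only how much these samples vary, which may in part be technical. The study set these groups side by side to follow remodelling and differentiation in the tracts.

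Fibril-forming collagens are made as procollagen chains in the endoplasmic reticulum, chiefly by fibroblasts. There prolyl and lysyl hydroxylases modify them, and the chaperone HSP47 accompanies the folded triple helix. Outside the cell proteinases trim the ends, and the lysyl oxidases then start the covalent crosslinks that stiffen the fibril. In the liver, portal fibroblasts keep such matrix around the ducts, and hepatic stellate cells lay it down after injury.

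Each value is a log2 signal of 1 probe set on 1 array, as deposited, so differences are on the log2 scale and levels of different genes are not set against each other. Arrays have no read depth, and their number limits the precision. Array medians lay between 3.22 and 3.30. Jag1+/-Rfng+/- replicate 5, whose sample name ends in "excl", was least like the rest (correlations across probe sets of 0.956 to 0.963, where no pair of the other 9 was under 0.969) and was kept. The 1105 olfactory receptor genes, which liver is not known to use, read 1.55 to 3.15 between their 5th and 95th percentiles. Col8a2, a network-forming collagen, and Col11a1, a fibrillar chain of cartilage, had both group means within that range (2.74 and 2.84 in Jag1+/-Rfng+/- tracts, 2.88 and 2.92 in control tracts), so their values carry little information. The other 36 genes had at least 1 group mean above it.

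The targeted genes were lower in Jag1+/-Rfng+/- tracts. Rfng averaged 4.36 ± 0.16 there and 4.82 ± 0.20 in control tracts (SD, n = 5 each), and the groups lay apart (two-sided exact permutation p = 0.00794, which is the smallest possible with these group sizes). Jag1 averaged 4.39 ± 0.63 in Jag1+/-Rfng+/- tracts and 5.72 ± 0.93 in control tracts (SD, n = 5 each), and the groups overlapped (two-sided exact permutation p = 0.0556). Since the alleles are not described, their probes may lie outside a deleted part. Markers of the tract were present: the duct genes Krt19, Sox9 and Epcam averaged 4.38, 5.01 and 5.58 in Jag1+/-Rfng+/- tracts, against 5.13, 5.94 and 6.34 in control tracts. The fibroblast genes Thy1 and Pdgfra averaged 4.91 and 4.97 in Jag1+/-Rfng+/- tracts, against 6.05 and 6.02 in control tracts. These 5 marker genes were all lower at an unadjusted p under 0.05, as were 3.79% of all genes. They come from longer lists, in which 8 of 17 fibroblast and 9 of 13 duct markers were lower at that mark. In those lists 4 fibroblast markers and 1 duct marker were higher. Mfap5, Pi16, Fbln2 and Dcn were at 0.42, 0.21, 0.11 and 0.02, and the duct marker Aqp1 at 0.15 log2.

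The collagen genes read lower on average in Jag1+/-Rfng+/- tracts, but 0 of 38 passed an adjusted p of 0.05 in limma, a linear model fitted across all genes with Benjamini-Hochberg adjustment. Over all genes 2 passed, or 0.00902%, and the targeted genes Rfng and Jag1 did not (limma adjusted p = 0.416 and 0.559). The lowest adjusted p among the 38 was 0.537. In Jag1+/-Rfng+/- tracts 28 genes were lower and 10 higher, against 51.5% lower over all genes, and the median difference was -0.26 log2, against -0.01 over all genes. At an unadjusted p under 0.05, 5 of the 38 were lower (Plod1, Plod2, Thbs2, Pcolce and Col3a1) and 0 higher, where 6.76% of all genes passed that mark, 3.79% lower and 2.98% higher. A difference of at least 1.5-fold was seen for 9 genes lower and 0 higher, against 1.42% and 0.748% of all genes. All 38 genes were read from the same 10 samples, so these counts are not independent observations. For 0 of the 38 did the groups lie apart on all arrays, which held for 0.766% of all genes as lower and 0.618% as higher.

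**Figure D1:**
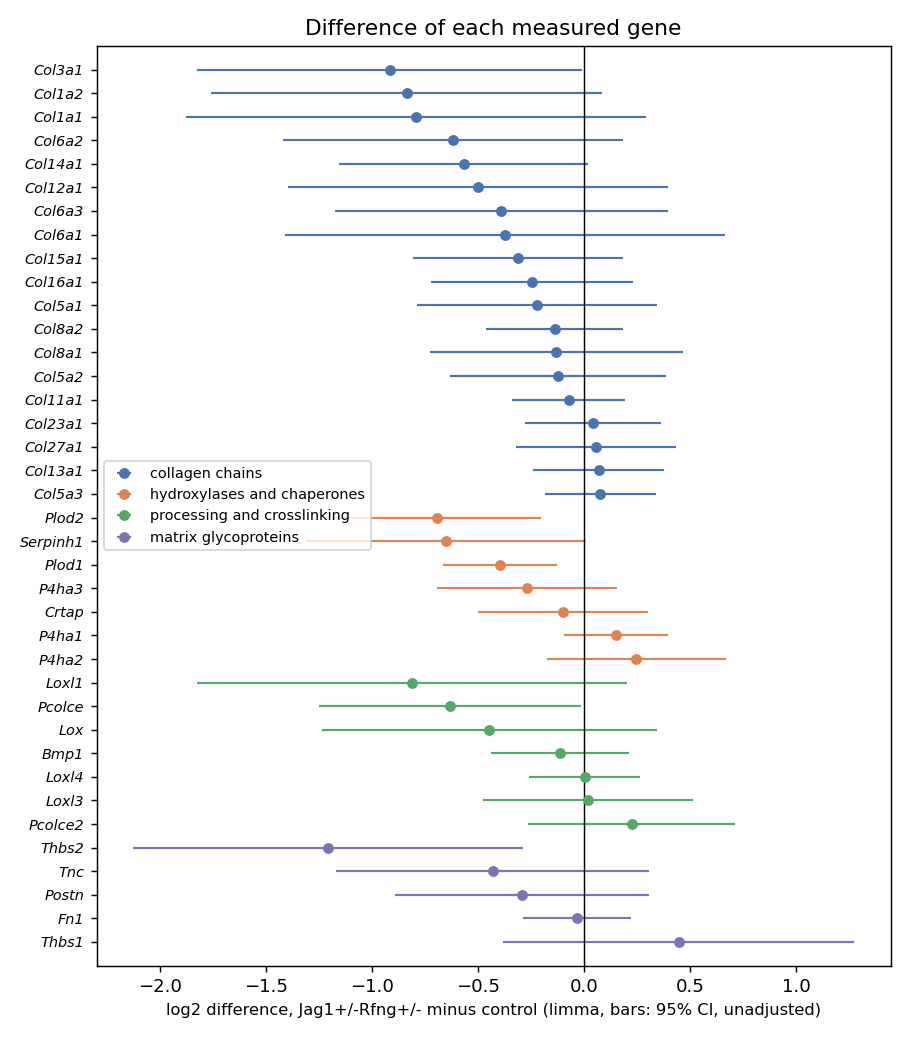
Difference of each of the 38 genes, Jag1+/-Rfng+/- minus control, in log2 units (points) with unadjusted 95% confidence intervals from limma (bars), coloured by role. Thbs2 lies farthest to the left at -1.21 and Thbs1 farthest to the right at 0.45, and most intervals include 0.

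The fibril-forming chains of types I and III had the largest differences among the 19 listed chains. Col3a1, the chain of type III collagen that runs with type I in vessel and duct walls, read 7.56, 8.86, 8.26, 9.20 and 7.19 on Jag1+/-Rfng+/- arrays 1 to 5, against 9.37, 9.77, 9.57, 7.94 and 8.99 on control arrays 1 to 5. Jag1+/-Rfng+/- arrays 1 and 5 were the lowest, array 4 lay among the control arrays, and control array 4 lay among the Jag1+/-Rfng+/- arrays. It averaged 8.21 ± 0.85 in Jag1+/-Rfng+/- tracts and 9.13 ± 0.72 in control tracts (SD, n = 5 each), a difference of -0.92 ± 0.42 log2 (SE), or 1.89-fold lower (limma adjusted p = 0.732).

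Col1a2, the second chain of type I collagen, read 8.91, 10.14, 9.38, 10.56 and 7.95 on Jag1+/-Rfng+/- arrays, against 10.11, 10.63, 10.55, 9.47 and 10.38 on control arrays. Its difference was -0.84 ± 0.42 (SE, limma adjusted p = 0.754), and its other probe set differed by -0.82. Col1a1, which supplies the other 2 strands of the type I triple helix, read 6.42, 7.68, 7.31, 8.50 and 6.39 on Jag1+/-Rfng+/- arrays, against 8.39, 8.79, 8.52, 6.30 and 8.27 on control arrays. Control array 4 had the lowest Col1a1 signal of all 10 arrays, and the difference was -0.79 ± 0.50 (SE, limma adjusted p = 0.809). Without control array 4 it was -1.23, and for Col1a2 and Col3a1 -1.03 and -1.21, with adjusted p of 0.519, 0.685 and 0.516.

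Type V collagen sits inside type I fibrils and sets their width. Col5a1 and Col5a2 were at -0.22 and -0.12, Col5a3 at 0.08, and the second probe set of Col5a1 at 0.05. The 95% interval for Col5a2 ran from -0.63 to 0.39, and the difference between chain types was not tested.

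Type VI collagen, a beaded filament that links cells to fibrils, was lower in all 3 chains, with Col6a2 at -0.62 ± 0.37, Col6a3 at -0.39 ± 0.36 and Col6a1 at -0.37 ± 0.48 (SE, limma adjusted p = 0.793, 0.868 and 0.902). Col6a2 read 4.12, 4.55, 4.84, 5.77 and 5.15 on Jag1+/-Rfng+/- arrays, against 5.26, 5.98, 6.13, 4.28 and 5.87 on control arrays, with both arrays numbered 4 at the far end of their group. The chains that decorate fibril surfaces (the FACIT collagens) were also lower, with Col14a1 at -0.57 ± 0.27, Col12a1 at -0.50 ± 0.41 and Col16a1 at -0.24 ± 0.22 (SE). Col14a1 read 6.51, 7.67, 7.67, 7.90 and 6.69 on Jag1+/-Rfng+/- arrays, against 7.71, 8.04, 8.19, 7.42 and 7.91 on control arrays. Here only Jag1+/-Rfng+/- arrays 1 and 5 lay below the control range (limma adjusted p = 0.741).

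Col15a1, of the basement membrane zone, was at -0.31, with a Jag1+/-Rfng+/- mean of 3.14 inside the olfactory receptor range. The remaining chains lay closer to 0. Col8a1, a network-forming chain of vessel walls, was at -0.13. The transmembrane collagens Col13a1 and Col23a1 were at 0.07 and 0.04, and the fibrillar chain Col27a1 at 0.06. Of the 19 chains 15 were lower and 4 higher, with a median of -0.24, and 1 (Col3a1) had an unadjusted p under 0.05.

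**Figure D2:**
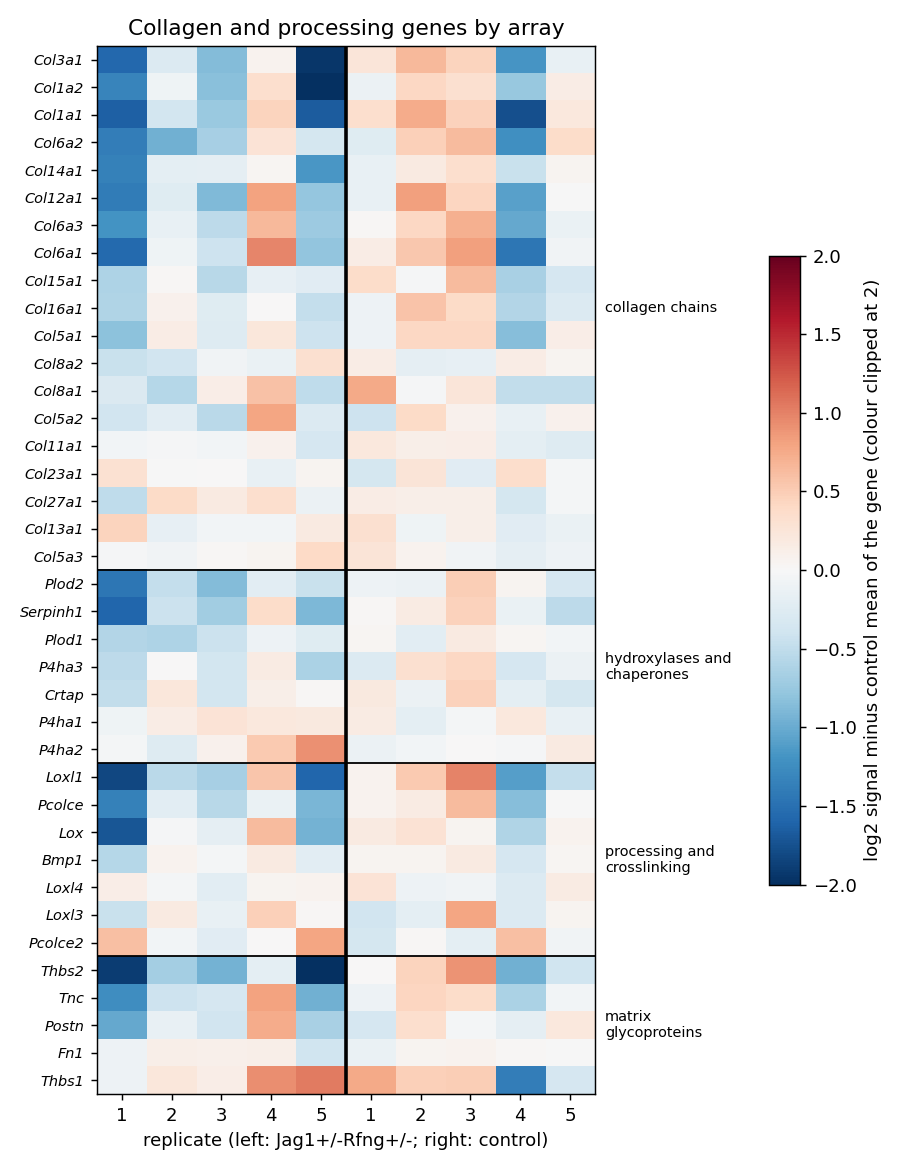
Log2 signal of each gene on each array minus the mean of the control arrays, with Jag1+/-Rfng+/- replicates 1 to 5 on the left and control replicates 1 to 5 on the right, genes grouped by role and ordered by difference. Blue runs down Jag1+/-Rfng+/- replicates 1 and 5 and control replicate 4 in the type I, III, VI and XII chains, while Fn1 and the lowest collagen rows stay pale throughout.

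The lysyl hydroxylases had the lowest p-values of the whole set. Plod1, the lysyl hydroxylase that acts in the triple helix, read 4.63, 4.59, 4.78, 5.11 and 4.96 on Jag1+/-Rfng+/- arrays, against 5.24, 5.00, 5.39, 5.26 and 5.16 on control arrays. Only Jag1+/-Rfng+/- array 4 reached above the lowest control array. Plod1 averaged 4.81 ± 0.22 in Jag1+/-Rfng+/- tracts and 5.21 ± 0.14 in control tracts (SD, n = 5 each), 1.32-fold lower (limma adjusted p = 0.537).

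Plod2, which hydroxylates lysines of the chain ends and thereby sets the type of crosslink, read 3.42, 4.39, 4.00, 4.65 and 4.43 on Jag1+/-Rfng+/- arrays, against 4.76, 4.76, 5.36, 4.93 and 4.54 on control arrays. Jag1+/-Rfng+/- array 4 alone exceeded the lowest control array, number 5. The difference was -0.69 ± 0.22 (SE), 1.62-fold lower (limma adjusted p = 0.571). Unlike Col1a1, neither gene was low on control array 4: without it Plod1 and Plod2 differed by -0.39 and -0.68.

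Serpinh1, the gene of HSP47, read 4.75, 5.92, 5.64, 6.71 and 5.45 on Jag1+/-Rfng+/- arrays, against 6.38, 6.51, 6.80, 6.22 and 5.83 on control arrays. Jag1+/-Rfng+/- arrays 1, 3 and 5 lay below the control range and the other two within it, and the difference was -0.65 ± 0.30 (SE, limma adjusted p = 0.738). The prolyl 4-hydroxylases, whose product keeps the helix stable at body temperature, were split. P4ha1 and P4ha2 were at 0.15 ± 0.11 and 0.25 ± 0.19, and P4ha3 at -0.27 ± 0.19 (SE), none past the test. P4ha3 read 3.67, 4.21, 3.84, 4.37 and 3.57 on Jag1+/-Rfng+/- arrays, against 3.93, 4.51, 4.61, 3.86 and 4.08 on control arrays, and the groups overlapped. P4ha2 read within the olfactory receptor range on 1 Jag1+/-Rfng+/- and 2 control arrays. Crtap, a partner of the prolyl 3-hydroxylase, was at -0.10. In this role 5 of 7 genes were lower and 2 higher, with a median of -0.27 and 2 (Plod1 and Plod2) at an unadjusted p under 0.05.

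Pcolce, which enhances removal of the procollagen C-terminal propeptide, read 5.82, 6.97, 6.62, 7.05 and 6.26 on Jag1+/-Rfng+/- arrays, against 7.25, 7.35, 7.81, 6.32 and 7.17 on control arrays. All Jag1+/-Rfng+/- arrays lay below every control array but number 4. The difference was -0.63 ± 0.28 (SE), 1.55-fold lower (limma adjusted p = 0.723). Its relative Pcolce2 was at 0.22 ± 0.22 and Bmp1, the proteinase that both assist, at -0.11 ± 0.15 (SE). The 95% interval for Bmp1 ran from -0.44 to 0.21.

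Among the lysyl oxidases, Loxl1, which is tied to elastic fibres, read 4.76, 6.03, 5.91, 7.12 and 4.99 on Jag1+/-Rfng+/- arrays, against 6.65, 7.09, 7.56, 5.48 and 6.10 on control arrays. The signals overlapped, and the difference was -0.81 ± 0.46 (SE, limma adjusted p = 0.782). Lox, the founding crosslinking enzyme, read 4.05, 5.74, 5.59, 6.39 and 4.82 on Jag1+/-Rfng+/- arrays, against 5.94, 6.05, 5.83, 5.17 and 5.84 on control arrays. Its highest and lowest signals both came from Jag1+/-Rfng+/- arrays, 4 and 1, and the difference was -0.45 ± 0.36 (SE, limma adjusted p = 0.857). Loxl3 and Loxl4 were at 0.02 ± 0.23 and 0.00 ± 0.12 (SE). Of the 7 genes in this role 4 were lower and 3 higher, with a median of -0.11 and 1 (Pcolce) at an unadjusted p under 0.05.

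The matrix glycoproteins had differences of both signs. Thbs2, a thrombospondin that binds matrix proteinases and affects fibril shape, read 5.64, 6.85, 6.58, 7.33 and 5.23 on Jag1+/-Rfng+/- arrays, against 7.54, 7.98, 8.44, 6.58 and 7.13 on control arrays. Control arrays 4 and 5 lay within the Jag1+/-Rfng+/- range and the other 3 above it. Thbs2 averaged 6.33 ± 0.87 in Jag1+/-Rfng+/- tracts and 7.54 ± 0.72 in control tracts (SD, n = 5 each), 2.31-fold lower and the largest difference of the 38 genes (limma adjusted p = 0.609).

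Thbs1, an activator of latent TGF-beta, had the opposite sign at 0.45 ± 0.38 (SE, limma adjusted p = 0.861). It read 5.65, 5.98, 5.87, 6.68 and 6.79 on Jag1+/-Rfng+/- arrays, against 6.51, 6.23, 6.24, 4.36 and 5.41 on control arrays. The sign rested on control arrays 4 and 5, since the other 3 control arrays lay within the Jag1+/-Rfng+/- range. Tnc and Postn, adhesion-modulating glycoproteins of remodelling tissue, were at -0.43 ± 0.34 and -0.29 ± 0.28 (SE).

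Fn1, fibronectin, on which collagen fibrils assemble and which hepatocytes also secrete into plasma, read 11.23, 11.46, 11.44, 11.45 and 10.94 on Jag1+/-Rfng+/- arrays, against 11.20, 11.39, 11.41, 11.36 and 11.32 on control arrays. The groups overlapped, and the difference was -0.03 ± 0.12 (SE, limma adjusted p = 0.972), with a 95% interval from -0.29 to 0.22. Of the 5 glycoproteins 4 were lower and 1 higher, with a median of -0.29 and 1 (Thbs2) at an unadjusted p under 0.05.

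**Figure D3:**
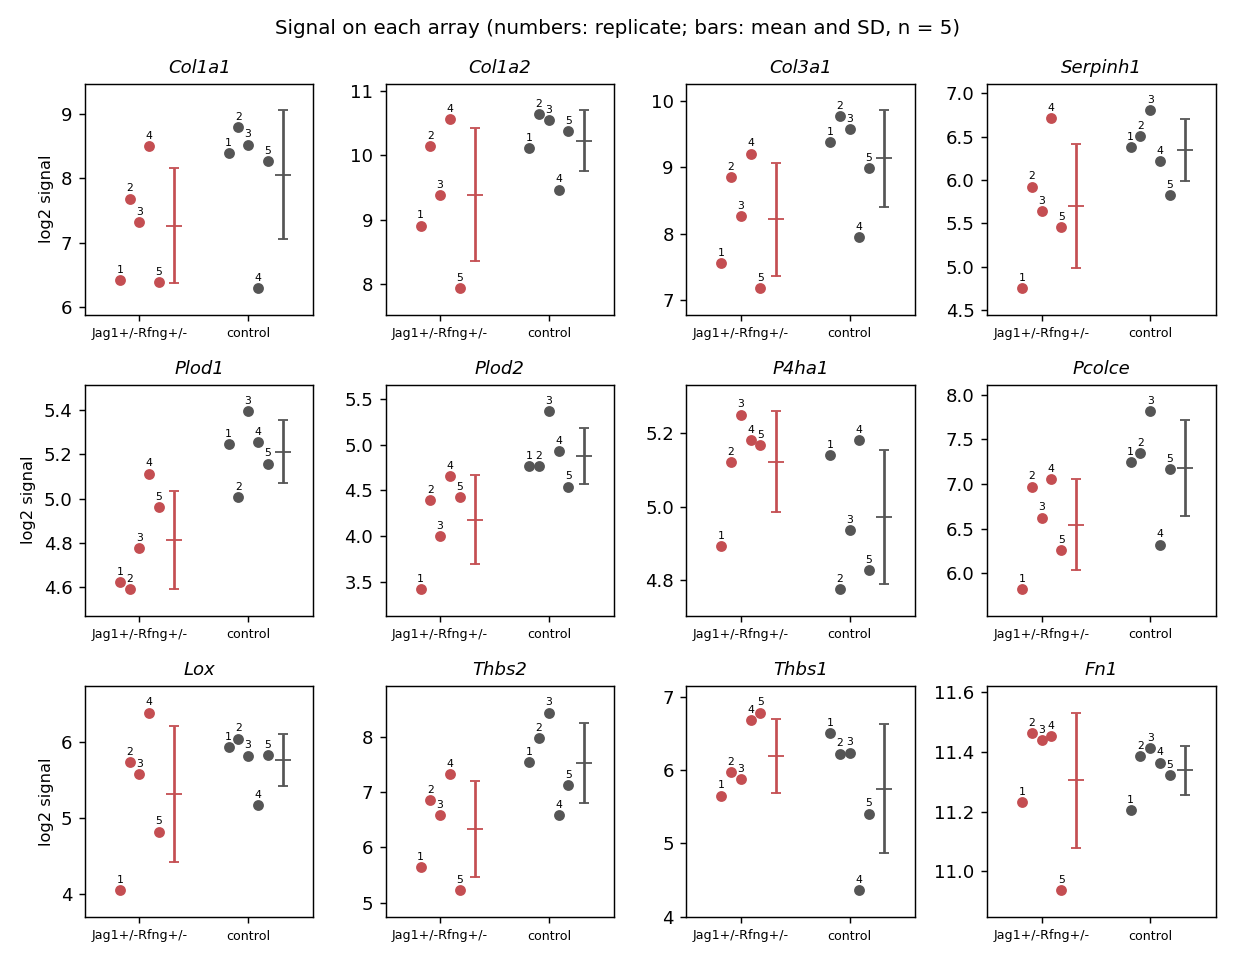
Log2 signal of 12 genes on each array (points, numbered by replicate) with the mean and SD of each group (bars, n = 5), Jag1+/-Rfng+/- on the left of each panel. Each panel has its own vertical scale. Plod1 and Plod2 show little overlap, with 1 Jag1+/-Rfng+/- array reaching above the lowest control array. By contrast, control replicate 4 is the low point of Col1a1, Col1a2, Col3a1, Pcolce, Lox, Thbs2 and Thbs1 within its group.

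Promoter sequence from RefSeq (GRCm38.p6) was at hand for 27 of the 38 genes, as 30 windows of the 250 bases before the start of transcription. Windows are shown for Col1a2 and Col3a1 as fibril chains, for Plod1 as the gene with the lowest p and for Thbs2 as the one with the largest difference. Capitals mark 4 searched motifs on either strand: the CCAAT box, the TATA box TATAAA, the GC box GGGCGG and TGGGAA, the core of the sequence bound by RBPJ, the DNA-binding partner of Notch. Each is written 5′ to 3′ along its gene.
Col1a2 (chr6:4505368-4505617, plus strand): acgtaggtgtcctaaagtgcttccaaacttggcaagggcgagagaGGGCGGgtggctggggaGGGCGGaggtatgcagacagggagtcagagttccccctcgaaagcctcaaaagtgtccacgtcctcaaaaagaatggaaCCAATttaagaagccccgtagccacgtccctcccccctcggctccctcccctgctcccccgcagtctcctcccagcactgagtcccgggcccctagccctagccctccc
Col3a1 (chr1:45311288-45311537, plus strand): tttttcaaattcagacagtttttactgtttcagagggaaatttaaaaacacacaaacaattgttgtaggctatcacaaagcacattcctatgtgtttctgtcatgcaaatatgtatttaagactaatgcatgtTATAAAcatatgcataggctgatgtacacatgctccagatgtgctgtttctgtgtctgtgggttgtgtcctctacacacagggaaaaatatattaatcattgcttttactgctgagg
Plod1 (chr4:147936777-147937026, minus strand): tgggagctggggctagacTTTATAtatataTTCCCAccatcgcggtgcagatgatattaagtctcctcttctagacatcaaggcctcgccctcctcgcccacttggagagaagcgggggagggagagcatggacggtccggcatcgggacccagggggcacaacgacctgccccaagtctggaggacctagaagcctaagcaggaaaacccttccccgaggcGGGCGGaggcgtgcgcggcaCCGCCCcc
Thbs2 (chr17:14694263-14694512, minus strand): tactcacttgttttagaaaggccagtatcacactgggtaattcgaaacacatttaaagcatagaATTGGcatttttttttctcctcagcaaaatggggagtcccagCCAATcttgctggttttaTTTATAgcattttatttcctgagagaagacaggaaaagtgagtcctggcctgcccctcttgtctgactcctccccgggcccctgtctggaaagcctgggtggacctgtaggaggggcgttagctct

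The GC box was in 21 of the 30 windows, or 70.0%, against 32.7% of all 32851 windows in the reference. The CCAAT box was in 5 windows, against 33.8% of all, and TATAAA in 8, against 12.4% of all. TGGGAA was in 6 windows, those of Col13a1, Loxl4, Pcolce, Plod1 and Tnc, which is 20.0% against 21.6% of all. No matches of different motifs overlapped in the 4 windows shown. A match is a string of letters and not a bound site.

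The arrays of each group spread widely. Relative to the control mean, the median over the 38 genes was -0.59, -0.11, -0.29, 0.20 and -0.41 on Jag1+/-Rfng+/- arrays 1 to 5, against 0.03, 0.18, 0.35, -0.34 and -0.06 on control arrays 1 to 5. Jag1+/-Rfng+/- array 4 thus lay with the control arrays, and control array 4 with the Jag1+/-Rfng+/- arrays. Jag1+/-Rfng+/- array 1 had the lowest signal of all arrays for 18 of the 38 genes, and control array 3 the highest for 14.

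The counts depended on these arrays. Without Jag1+/-Rfng+/- array 4, 16 genes had an unadjusted p under 0.05 and were lower, where 4.24% of all genes did so. Without control array 4, 11 did, against 4.17% of all genes. Leaving out control array 1, 2 or 3 or Jag1+/-Rfng+/- array 1 or 5 left 3, against 3.24% to 3.94% of all genes, and in each of these fits 0 passed the adjusted threshold. The median of -0.26 became -0.10 without Jag1+/-Rfng+/- array 1 and -0.16 without control array 3.

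The sample names carry 4 different numbers of unstated meaning, and 1 of these numbers occurs in both groups, on 7 arrays (4 Jag1+/-Rfng+/- and 3 control). Within these 7 the median difference was -0.15. Of the 38 genes 1, against 5 before, was lower at an unadjusted p under 0.05, or 2.63%, where 3.45% of all genes were. Without Jag1+/-Rfng+/- array 5 as well, 3 against 3, the median was -0.05 and 1 gene was lower at that mark, against 3.01% of all genes. There Col1a1 differed by -0.04, Col1a2 by -0.19 and Col3a1 by -0.32, while Plod1, Plod2 and Thbs2 still differed by -0.39, -0.67 and -0.74 (limma adjusted p = 0.913, 0.867 and 0.925). Lox turned to 0.22. Each of the other numbers names a single array, so no value could be had there.

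Markers of portal fibroblasts and of smooth muscle also had array 4 as the highest of the Jag1+/-Rfng+/- arrays and as the lowest of the control arrays. The portal fibroblast list (17 genes, none among the 38) had medians of -1.02, -0.38, -0.52, -0.09 and -0.97 on Jag1+/-Rfng+/- arrays, against 0.02, 0.22, 0.29, -0.41 and -0.02 on control arrays. Of these 17, 13 were lower, 8 of them at an unadjusted p under 0.05. Over all genes 51.5% were lower, and 3.79% were lower at that mark. The sum of the linear signals of the 17 ranged from 1163 to 2434 in Jag1+/-Rfng+/- tracts and from 1571 to 3177 in control tracts. Clec3b had both group means within the olfactory receptor range, and Mfap5 and Pi16 had the control mean within it. In bulk tissue fewer cells of a type and less RNA per cell cannot be told apart, and the part of fibroblast content in the collagen values was not tested.

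Smooth muscle markers, which mark the vessel wall, had medians of -0.82, -0.25, -0.14, 0.54 and -0.46 on Jag1+/-Rfng+/- arrays, against -0.01, 0.39, 0.46, -0.74 and -0.09 on control arrays, with both arrays numbered 4 at the far end of their group as for the collagens. Against 51.5% of all genes, 8 of these 10 were lower. At an unadjusted p under 0.05, where 3.79% of all genes were lower, 1 of these 10 was. Their summed signal ran from 304 to 1251 in Jag1+/-Rfng+/- tracts and from 369 to 915 in control tracts, and both means of Synpo2 lay within the olfactory receptor range. Cholangiocyte markers were lower in 12 of 13, with 9 at an unadjusted p under 0.05, against the same shares of all genes. The sum of the cholangiocyte markers ran from 582 to 849 in Jag1+/-Rfng+/- tracts and from 828 to 1465 in control tracts. Both means of Cftr lay within that range, as did the Jag1+/-Rfng+/- mean of Ehf. Their part in the collagen values was not tested either.

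Hepatocyte markers stayed close to the control mean, with array medians from -0.12 to 0.02 in Jag1+/-Rfng+/- tracts and from -0.03 to 0.06 in control tracts (7 of 13 lower). Alb, Ttr and Ahsg averaged 12.13, 12.35 and 12.31 in Jag1+/-Rfng+/- tracts, near the highest value on any array, 12.47. A shift in such bright genes may not show. Single genes of the list differed by -0.61 (Tdo2) to 0.32 (Ass1). Stellate cell markers, a further source of collagen, ran from -0.32 to 0.19 in Jag1+/-Rfng+/- tracts and from -0.03 to 0.15 in control tracts, with 5 of 12 lower. At an unadjusted p under 0.05, Rgs5 and Pdgfrb of that list were lower, at -0.87 and -0.95, and Ecm1 was higher, at 0.44. Over all genes 3.79% were lower and 2.98% higher at that mark. Of the other lists, 3 of 12 endothelial, 1 of 11 macrophage, 3 of 7 neutrophil, 4 of 7 mesothelial and 0 of 5 erythroid markers were lower, against 51.5% of all genes. Higher at an unadjusted p under 0.05 were the endothelial Stab2, the macrophage Clec4f and C1qa and the neutrophil Mpo and Elane. In these lists 0 markers were lower at that mark, and 2.98% of all genes were higher. Both means of the mesothelial markers Upk3b, Upk1b, Lrrn4 and Muc16 and of the erythroid marker Gata1 lay within the olfactory receptor range. The Jag1+/-Rfng+/- mean of the mesothelial marker Msln did too. The erythroid median on Jag1+/-Rfng+/- array 5 was 2.45, the highest of any list on any array.

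**Figure D4:**
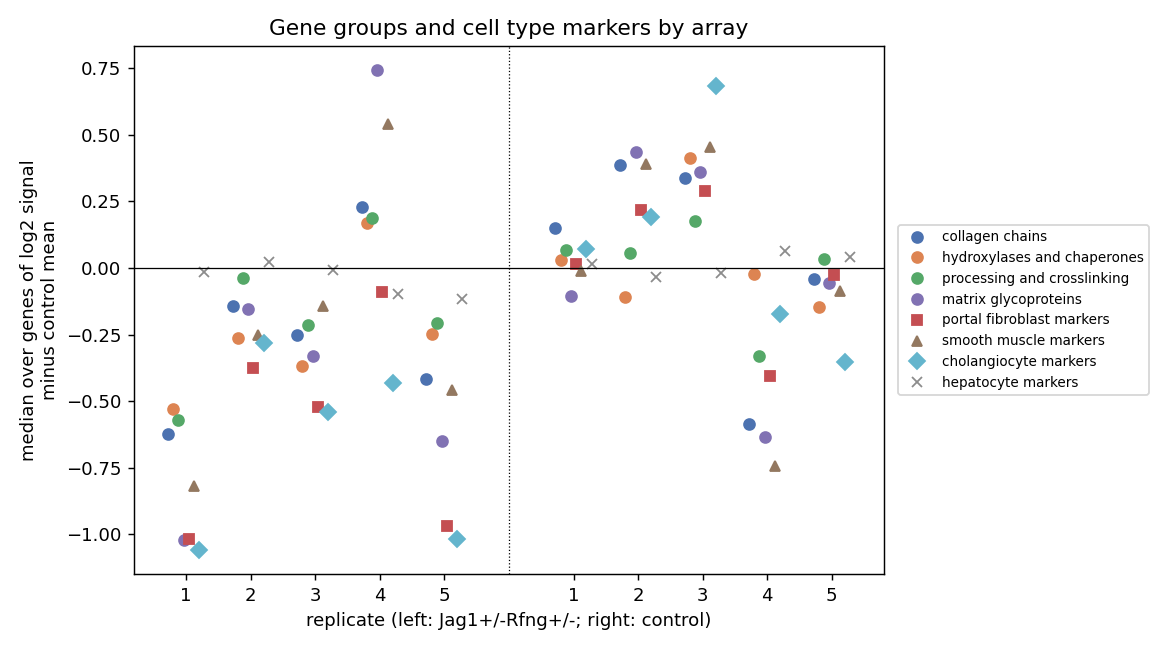
Median over the genes of each role (circles) and of 4 cell type marker lists (other symbols) of the log2 signal minus the control mean, for Jag1+/-Rfng+/- replicates 1 to 5 on the left and control replicates 1 to 5 on the right. The collagen chains, matrix glycoproteins, fibroblast markers and smooth muscle markers are low on Jag1+/-Rfng+/- replicate 1 and control replicate 4, and hepatocyte markers stay near 0 on every array.

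Among 70 other measured genes of collagen biology, 46 were lower and 24 higher, with a median of -0.06 and 0 past the adjusted threshold. At an unadjusted p under 0.05, 6 were lower and 1 higher. Over all genes 51.5% were lower, and at that mark 3.79% were lower and 2.98% higher. Abi3bp, a matrix protein that binds collagen, was at -1.05 with no overlap (3.08 to 3.96 on Jag1+/-Rfng+/- arrays, against 4.02 to 5.34 on control arrays, limma adjusted p = 0.302). The groups lay apart as lower for 1 of the 70 and as higher for 1 (Col20a1), against 0.766% and 0.618% of all genes. Itga1, a subunit of a collagen receptor, was at -0.52 and Ecm2 at -0.58. Dpt, dermatopontin, which binds fibrils and is also on the fibroblast list, was at -2.60, with Jag1+/-Rfng+/- arrays spread from 2.63 to 7.54 and control arrays from 6.12 to 8.87. Of the other chains Col6a6 was at -0.84 and Col20a1 at 0.21.

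Fibril-associated proteins had a median of -0.40 (10 of 12 lower) and collagen receptors -0.18 (7 of 9 lower). The general folding, glycosylation and export genes of the endoplasmic reticulum were at -0.09 (13 of 17 lower). The 25 other collagen chains were at 0.00 (12 lower) and the 7 other procollagen proteinases at 0.00 (4 lower). Both means of the chains Col4a3, Col4a4, Col4a6, Col6a4, Col9a1, Col17a1, Col19a1, Col22a1, Col24a1 and Col28a1 lay within the olfactory receptor range. So did those of the proteinases Adamts3, Tll1, Tll2, Mep1a and Mep1b, so both medians rest in part on values that carry little information. In the other groups Kera, Comp, Gp6 and Colgalt2 had both means within it.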

How the data were processed

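The authors deposited log2 expression values of 33649 probe sets on 10 arrays, between 1.08 and 12.47. Per the submitters' processing notes, RMA and Partek 6.6 were involved, in roles not stated. RMA usually equalizes the distributions of arrays, and folds of dim genes come out too small. No scanner output was used, and 0 columns belonged to no sample. Symbols came from the platform annotation, where 23521 probe sets have 1 symbol, 1814 several and 8314 none. By Entrez identifier 23328 of the single-symbol sets matched RefSeq (GRCm38.p6). No pair of arrays was identical (0 pairs).

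Groups came from the sample titles. limma 3.58.1 in R 4.3.3 (lmFit, eBayes, no covariate, two-sided, Benjamini-Hochberg over all genes) gave every difference, SE and interval, as Jag1+/-Rfng+/- minus control. It was tested on simulated data. Jag1 and Rfng were also compared by exact permutation over all 252 splits. The genes and lists were chosen with earlier results of these data known. Array values are given for the 12 genes with the lowest unadjusted p and for Col1a1, Col1a2, Col3a1, Lox, Fn1 and Serpinh1. Of the related genes, up to 6 at an unadjusted p under 0.05 are named. Thbs1, and the remaining genes as differences, were added for their roles. The 20 alternatives covered single arrays left out, a replicate block, sample-name numbers, weights, eBayes settings, normalization, dim genes and probe set choice. Same-numbered arrays of both groups did not deviate together.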

Additional observations from a re-analysis of the deposited data

Results flagged for a closer look

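For 5 genes 1 array stood far from the other 4 of its group, by Dixon's ratio at its 95% critical value, which chance exceeds in about 1 of 20 groups. 76 groups were examined. Col5a2 read 6.41 on Jag1+/-Rfng+/- replicate 4, where the next highest was 5.41. Col5a3 read 4.39 on Jag1+/-Rfng+/- replicate 5, where the next highest was 4.04. On control replicate 4 a low value was found for 3 genes: Col1a1 at 6.30 with the next lowest at 8.27, Lox at 5.17 with the next lowest at 5.83, and Bmp1 at 6.59 with the next lowest at 6.96.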

How the results depend on the processing

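Under all 20 alternatives 0 of the 38 genes passed an adjusted p of 0.05 in limma. The sign of 22 genes held in each alternative that tested them, among them Col1a1, Col1a2, Col3a1, Plod1, Plod2, Pcolce, Serpinh1, Loxl1, Thbs1 and Thbs2. Quantile normalization and median centring changed the sign of 0 genes. The number of genes lower at an unadjusted p under 0.05, 5, became 3 with quantile normalization, 1 within the arrays of the shared sample-name number and 1 there without Jag1+/-Rfng+/- replicate 5. In these fits 3.43%, 3.45% and 3.01% of all genes were lower at that mark. The number rose to 7 with median centring and 6 with trend and robust eBayes, and was 4 with array weights. There 3.53%, 3.74% and 3.9% of all genes were lower at that mark. Single arrays left out gave 3 to 16, and medians over the 38 of -0.37 to -0.10. The count over all genes, 2, became 5 with array weights, 11 with trend and robust eBayes, 11 among genes above the median level (3.74, 32 of the 38 tested), 0 within the shared number without replicate 5 (1215 at an unadjusted p under 0.05), and 2 to 6 with single arrays left out. With the replicate number as a block it stayed 2, and the count of lower genes 5. Same-numbered arrays correlated between -0.23 and 0.06, and 1 of 10 arrays correlated best with its own number. Jag1 ranged from -1.61 to -1.11 with single arrays left out. Its exact permutation p was 0.0159 without control replicate 4 and 0.0476 without control replicate 5. Every other single-array omission gave an exact permutation p for Jag1 between 0.0556 and 0.0952, so most omissions did not bring it under 0.05. Rfng differed by -0.38 within the shared number (exact permutation p = 0.0571). The causes were not tested. With 5 arrays a group, limma's 95% intervals were wide for the type I chains, from -1.88 to 0.29 for Col1a1 and from -1.76 to 0.09 for Col1a2, so differences of the size measured were not told from 0.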

Other observations

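For 2 pairs of genes with differences of opposite sign the signals were subtracted within each array. Both pairs were chosen after their values were seen, and subtracting opposite signs widens the gap between the group means by construction. So no test is given, and the share of all gene pairs that lie apart was not counted. Thbs2 minus Thbs1 was -0.01, 0.88, 0.71, 0.65 and -1.56 on Jag1+/-Rfng+/- arrays 1 to 5, against 1.04, 1.76, 2.20, 2.22 and 1.73 on control arrays 1 to 5, and the groups lay apart. Plod2 minus P4ha1, a lysyl against a prolyl hydroxylase, was -1.47, -0.73, -1.25, -0.53 and -0.74 on Jag1+/-Rfng+/- arrays, against -0.38, -0.02, 0.43, -0.25 and -0.29 on control arrays, again apart. Only the shift between groups can be read, since the probes of different genes are not on 1 scale.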
